A study of Mus musculus with 2 samples.

Results

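The nuclear-encoded genes of oxidative phosphorylation (OXPHOS) were described in single-cell RNA-seq libraries of mouse *MLL-AF9* leukemia. Members were taken by name: every gene symbol starting with Nduf, Uqcr, Atp5 or Cox4 to Cox8, without pseudogenes marked -ps. This gave 88 of the 27998 genes in the matrix, of which 36 are subunits of complex I, 7 complex I assembly factors, 8 subunits of complex III, 20 genes of complex IV, 15 subunits of complex V, and 2 (*Atp5s* and *Atp5sl*, at 17.1 and 26.8 CPM together in the libraries labelled WT and KO) only resemble subunits in name. Each member's symbol occurred once in the matrix. Members were described in the 72 that had a UMI (unique molecular identifier, a tag that marks 1 captured RNA molecule) in at least 10% of the cells with 500 or more genes, called robust here after the study's own filter, and more briefly in the others. Of the 16 not robust, 12 had UMIs and 4 had none.

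The study asked how loss of *Kat2a*, a histone acetyltransferase, changes transcription and its variability in leukemia cells. Donor mice were *Kat2a* Flox/Flox and either Mx1-Cre -/- (labelled WT) or Mx1-Cre+/- (labelled KO), an interferon-inducible recombinase, and both were treated with pIpC. Marrow taken 4 to 6 weeks after pIpC was depleted of lineage-positive cells, transduced with a retrovirus carrying *MLL-AF9* and a fluorescent reporter, and grown in irradiated recipients. Stored cells of 5 WT and of 4 KO leukemias were pooled by genotype before sorting of live reporter-positive single cells, so each genotype was 1 library and no difference between genotypes had a replicate or a test. The intervals given are exact 95% counting intervals, and they cover counting error only, not the spread between leukemias or library preparations.

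The 2 libraries of the pooled matrix were told apart by barcode suffix, -1 read as KO and -2 as WT. The labels do not state this, and it follows the code published with the study, which treats suffix 1 as Cre-positive cells. Levels are given as CPM, a gene's UMIs over all UMIs of its library's kept cells, times 1e6, and are not divided by gene length. *Kat2a* itself had 142 UMIs in the kept WT-labelled cells, 12.2 CPM (10.2 to 14.3), and 759 in the KO-labelled cells, 95.8 CPM (89.1 to 102.9), which goes against the labels if the locus is read as lost. The excised allele keeps its last exon and is transcribed, and the assay reads 3′ ends, so this count does not check the excision. The libraries are therefore named by their labels, as the WT-labelled and the KO-labelled library. Of 4069 and 4240 deposited cells 3866 and 3545 were kept (WT-labelled, then KO-labelled library, the order of paired values throughout), with a median of 2588.5 and 1884 UMIs and 1050.5 and 819 genes per cell. The libraries shared 28 barcodes, 19 of them among kept cells. The cells carried the granulocytic and primary granule RNA of this leukemia: the 12 granulocyte markers summed to 103378 CPM in the WT-labelled library and 93656 in the KO-labelled library, whereas the T cell markers summed to 1.03 and 0.758, with 2 of the 5 measured at 0 in both. Summed markers of S phase (1226 and 1529 CPM), G2/M (1074 and 1329), erythroid cells (167 and 451) and megakaryocytes (20.8 and 135) were higher in the KO-labelled library. Within the G2/M list *Cenpf*, *Top2a*, *Cenpe* and *Hmmr* were lower there and the others higher. Summed markers of primary granule progenitors (14920 and 13420) and monocytes (1884 and 1662) were lower. Of these, *Mpo*, *Ms4a3*, *Nkg7*, *Ms4a6c* and *Ly86* were higher in the KO-labelled library and the other measured markers lower. The part of these cell states in the differences below was not tested.

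OXPHOS couples the oxidation of NADH and succinate to the making of ATP across the inner mitochondrial membrane. Complex I takes electrons from NADH, complex III passes them from ubiquinol to cytochrome c, complex IV hands them to oxygen, and complex V, the ATP synthase, uses the proton gradient to make ATP. Most subunits are encoded in the nucleus and a few by mitochondrial DNA, so the 2 genomes have to be expressed together. Acute myeloid leukemia cells are known for a reliance on this pathway. NRF1, the ETS factor GABP and YY1 are known regulators of many nuclear OXPHOS promoters.

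The promoters are shown for the genes with the largest differences between libraries and for genes holding the letters of known regulators. RefSeq windows (GRCm38.p6) from 250 bases before to 50 after a gene's start were matched for 73 of the 88 members, 79 windows in all. The letters GCGCANGCG (NRF1) were found on either strand in 26.6% of member windows, against 6.25% of all 32851 windows in the table and 15.9% of the 2726 windows of robust genes. AAGATGGCG (YY1) was in 11.4% of member windows, 1.40% of all windows and 4.04% of those of robust genes. CCGGAAG (ETS) was in 19.0% of member windows, above the 8.86% of all windows but below the 23.2% of windows of robust genes. A match is only a match of letters. The 150 bases before the start follow, on the gene's own strand, with matches in capitals: chr2:10080511-10080660 (minus) for *Atp5c1* and chr17:66101560-66101709 (minus) for *Ndufv2*, the members furthest above 0 in the comparison of libraries, chr4:123718187-123718336 (minus) for *Ndufs5*, the member furthest below it, and chr11:115419920-115420069 (minus) for *Atp5h* and chr5:115348959-115349108 (minus) for *Cox6a1*, a pair of genes with both NRF1 and ETS letters in this stretch.
Atp5c1: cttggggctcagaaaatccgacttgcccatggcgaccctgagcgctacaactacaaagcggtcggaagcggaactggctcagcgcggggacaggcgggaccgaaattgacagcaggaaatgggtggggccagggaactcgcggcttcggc
Ndufv2: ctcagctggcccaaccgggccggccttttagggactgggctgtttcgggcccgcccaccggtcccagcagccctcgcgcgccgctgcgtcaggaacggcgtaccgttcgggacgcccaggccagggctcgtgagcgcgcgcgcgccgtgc
Ndufs5: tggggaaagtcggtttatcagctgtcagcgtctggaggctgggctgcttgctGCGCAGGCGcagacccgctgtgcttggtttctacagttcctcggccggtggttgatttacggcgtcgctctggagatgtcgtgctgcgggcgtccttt
Atp5h: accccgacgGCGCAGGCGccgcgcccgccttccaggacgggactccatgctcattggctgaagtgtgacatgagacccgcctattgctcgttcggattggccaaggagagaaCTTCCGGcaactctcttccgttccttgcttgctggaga
Cox6a1: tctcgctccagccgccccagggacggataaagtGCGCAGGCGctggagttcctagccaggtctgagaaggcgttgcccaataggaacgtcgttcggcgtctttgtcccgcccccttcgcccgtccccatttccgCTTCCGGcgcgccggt
The first pair held none of the 3 motifs in these bases, though *Atp5c1* held the NRF1 letters elsewhere in its 2 RefSeq windows. *Ndufs5* held the NRF1 letters, and the last pair held NRF1 letters and the ETS letters on the opposite strand. Robust members with the NRF1 letters in a window had a median log2 difference between libraries of 0.15 (18 members) and those without had 0.13 (45 members). With and without the ETS letters the medians were 0.15 (14 members) and 0.13 (49 members). The letters thus separated the members little in this comparison.

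Together the 88 genes gave 264796 UMIs in WT-labelled cells, 2.27% of their UMIs (2.26 to 2.28), and 196987 in the KO-labelled library, 2.49% (2.48 to 2.50). The log2 ratio of the shares (KO-labelled over WT-labelled) was 0.13 (0.12 to 0.14). Among the 72 robust members 55 (76.4%) had a ratio above 0 and 17 below, where 60.2% of all 2737 robust genes were above 0. The median log2 ratio of the members was 0.10, and that of all robust genes was 0.07. Of the members, 15 were at least 1.2-fold higher, 20.8% of them, where 23.7% of all robust genes were. 1 member, *Ndufs5*, was at least 1.2-fold lower, 1.39% of the members, where 15.5% of all robust genes were. No member reached 1.5-fold, a size that 3.54% of robust genes passed upward and 3.43% downward. The members thus lay close together and near the middle of all robust genes, with few at the low end. The robust genes were not matched to the members on level, so this closeness may reflect level. Counts of calls moved with the scaling: with ratios centred on the median of robust genes, which lowers every log2 ratio by 0.07, 7 members were 1.2-fold higher (16.3% of robust genes) and 3 lower, *Ndufs5*, *Atp5j2* and *Cox6b2* (20.9% of robust genes). Under that scaling the summed log2 ratio was 0.06.

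A cell's depth moved with the share. In the WT-labelled library the members took 1.94% of UMIs in the lowest quartile of cells by total UMIs and 2.49% in the highest, and in the KO-labelled library 2.29% and 2.68%. When cells of the libraries were matched on total UMIs, the log2 ratio of the summed members was 0.20 and 25 members were 1.2-fold higher, where 33.6% of robust genes were. The ratio was therefore not smaller between cells of like depth.

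**Figure D1:**
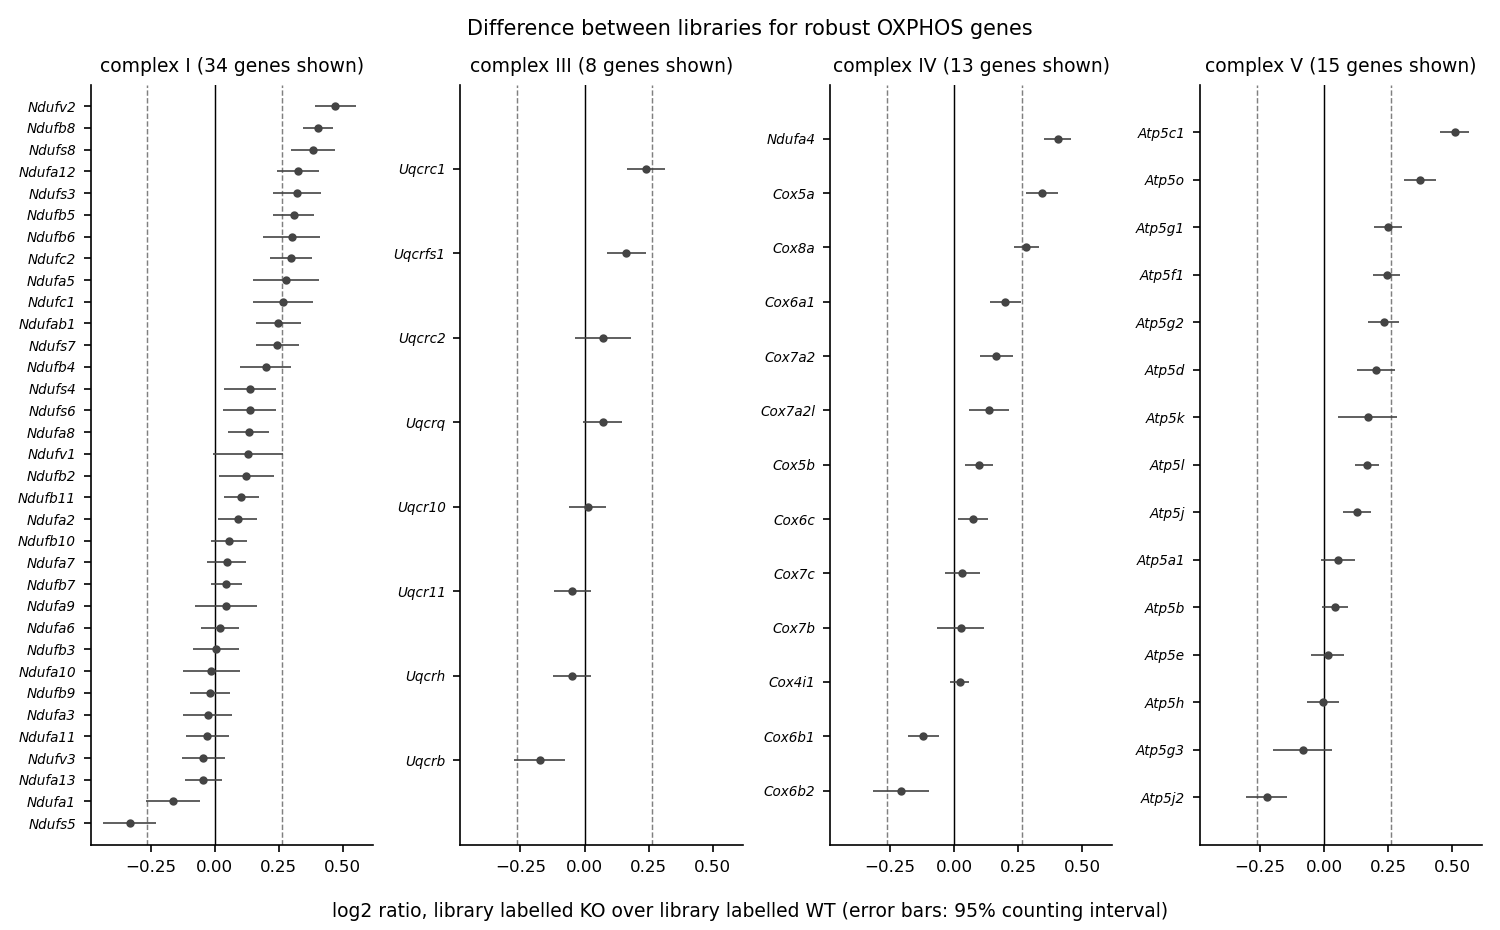
Log2 ratio of CPM (KO-labelled over WT-labelled library) for robust subunit genes (all but 1 of complex I), with its 95% counting interval, in 4 panels by complex. The solid line is 0 and the dashed lines mark 1.2-fold; *Ndufs5* alone lies beyond the lower line, and 10 of the 15 genes beyond the upper line belong to complex I, which supplies 35 of the 72 robust members.

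Complex I, the entry point for NADH, summed to 7789 CPM in the WT-labelled library and 8547 in the KO-labelled library, a log2 ratio of 0.13 (0.12 to 0.15). Of its 35 robust genes 10 were at least 1.2-fold higher and 1 lower, where 23.7% and 15.5% of all robust genes were. Its core subunits, the conserved proteins that pass electrons from NADH to quinone, summed to 1070 and 1312 CPM, a log2 ratio of 0.30 (0.26 to 0.33), and 3 of the 6 robust ones were 1.2-fold higher. The accessory subunits, which surround that core, summed to 6720 and 7235 CPM, a log2 ratio of 0.11 (0.09 to 0.12), with 7 of 29 higher and 1 lower. The interval of the core subunits lay above that of the accessory subunits.

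*Ndufv2*, an iron-sulfur subunit of the NADH-oxidizing arm, had 219 CPM in the WT-labelled library and 303 in the KO-labelled library, a log2 ratio of 0.47 (0.39 to 0.55). *Ndufs8*, which carries iron-sulfur clusters near the quinone site, had 208 and 271, a log2 ratio of 0.38 (0.30 to 0.47). *Ndufs3*, a subunit of the peripheral arm, had 171 and 213, a log2 ratio of 0.32 (0.23 to 0.42). The flavin-binding *Ndufv1*, which pairs with *Ndufv2* in the same arm, did not follow it closely, at 88.1 and 96.3 CPM with a log2 ratio of 0.13 (-0.01 to 0.27). *Ndufs1*, the largest iron-sulfur subunit, fell short of the detection filter with 26.1 and 31.6 CPM. Core subunits of a single enzyme thus included a gene whose interval held 0 and the gene with the highest ratio in the complex.

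Among accessory subunits *Ndufb8* was the most abundant gene of the complex over both libraries together, with 445 and 588 CPM and a log2 ratio of 0.40 (0.34 to 0.46). *Ndufb7* and *Ndufb11* came next in level. *Ndufb7* had 460 and 475 CPM, a log2 ratio of 0.05 (-0.01 to 0.11). *Ndufb11* had 347 and 373, a log2 ratio of 0.10 (0.03 to 0.17), and in cells with 1000 or more genes this was -0.01. All 3 belong to the membrane arm, and only *Ndufb8* of them passed 1.2-fold. At the low end *Ndufs5*, a small subunit on the intermembrane side, had 189 CPM in the WT-labelled library and 150 in the KO-labelled library, a log2 ratio of -0.33 (-0.43 to -0.23). Its last 500 bases have a near-identical copy (at least 97% over 90 bases or more) in the gene *BC002163*, so its count is uncertain to the extent that shared reads were dropped. The same holds for 12 other robust members, *Ndufs3*, *Ndufb9*, *Ndufb11*, *Uqcr11*, *Uqcrb*, *Cox5b*, *Cox7c*, *Atp5f1*, *Atp5g2*, *Atp5h*, *Atp5l* and *Atp5o*. *Ndufa1*, a small membrane subunit, had 168 and 150, a log2 ratio of -0.16 (-0.27 to -0.06). The assembly factors, which help build complex I but are no part of it, were low: the 7 summed to 211 and 223 CPM, a log2 ratio of 0.08 (-0.01 to 0.17), and only *Ndufaf3*, at 89.3 and 93.9, passed the detection filter.

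Among the members of the 4 complexes, those of complex III had the smallest summed difference, with 2205 and 2272 CPM and a log2 ratio of 0.04 (0.02 to 0.07). With ratios centred on the median of robust genes it was below 0, at -0.03. None of its 8 members reached 1.2-fold in either direction, where 23.7% of all robust genes did upward and 15.5% downward. *Cyc1*, the cytochrome c1 subunit of complex III, falls outside the naming rule and did pass 1.2-fold. It had 173 and 218 CPM, a log2 ratio of 0.33 (0.24 to 0.43). The 3 core and Rieske subunits were higher in the KO-labelled library, at 712 and 805 CPM together and a log2 ratio of 0.18 (0.13 to 0.23). The 5 small subunits were not, at 1493 and 1466 and a log2 ratio of -0.03 (-0.06 to 0.01). *Uqcrc1*, a core protein, had 295 and 349, a log2 ratio of 0.24 (0.17 to 0.31). *Uqcrfs1*, the Rieske iron-sulfur protein that hands electrons toward cytochrome c, had 276 and 308, a log2 ratio of 0.16 (0.09 to 0.24). The 3 most abundant genes over both libraries together were small subunits with intervals that include 0, although *Uqcrc1* was the highest in the KO-labelled library: *Uqcr11* had 346 and 335 CPM, *Uqcr10* 335 and 338, and *Uqcrh* 324 and 313. *Uqcrb*, a ubiquinone-binding small subunit, had 193 and 171, a log2 ratio of -0.18 (-0.27 to -0.08) and -0.04 in cells matched on total UMIs, and near-identical copies of its 3′ end lie in 3 other genes.

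Complex IV, cytochrome c oxidase, summed to 6168 and 6742 CPM, a log2 ratio of 0.13 (0.11 to 0.14). *Cox4i1*, its ubiquitous regulatory subunit, was the most abundant of all 88 genes, with 1281 and 1300 CPM and a log2 ratio of 0.02 (-0.02 to 0.06). *Cox8a*, a small membrane subunit, had 618 and 751, a log2 ratio of 0.28 (0.23 to 0.33). *Ndufa4*, named for complex I but a subunit of complex IV, had 517 and 684, a log2 ratio of 0.40 (0.35 to 0.46). *Cox5a*, a subunit on the matrix side, had 386 and 489, a log2 ratio of 0.34 (0.28 to 0.40). These last 3 were the genes of the complex past 1.2-fold, where 23.7% of all robust genes were at least that much higher. *Cox7b*, with 201 and 205 CPM, had a log2 ratio of 0.03 (-0.07 to 0.12), which was 0.18 when cells were matched on total UMIs, 0.15 when at least 1000 genes per cell were required, and -0.05 in thinned cells.

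Several complex IV subunits have alternative genes used in muscle, lung or testis, and these set the tissue form of the enzyme. The muscle and lung forms were close to the limit of detection. *Cox4i2* had 9 and 11 UMIs, 0.771 and 1.39 CPM. *Cox6a2* had 11 and 13 UMIs, 0.943 and 1.64 CPM, and *Cox7a1* had 12 and 11, 1.03 and 1.39 CPM. Their widespread partners *Cox6a1* (438 and 503 CPM) and *Cox7a2* (388 and 435) were more abundant by orders of magnitude. *Cox7b2*, *Cox8b*, *Cox8c* and *Ndufa4l2* had 0 UMIs in both libraries, which allows up to 0.257 CPM (3 counts) in the WT-labelled library and 0.379 in the KO-labelled library.

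*Cox6b2* departed from this. Known mainly as the testis form of subunit 6B, it had 1897 UMIs in WT-labelled cells, 163 CPM (155 to 170), and 1115 in the KO-labelled library, 141 CPM (133 to 149). Its log2 ratio was -0.21 (-0.32 to -0.10). It was -0.05 in cells matched on total UMIs and 0.09 in cells thinned to 1000 UMIs, so its sign depended on how cells were compared. Why the sign changed was not tested. Within the cell clusters described below, the log2 ratio of *Cox6b2* was below 0 in 9 and above 0 in 3, with a median of -0.43. Its interval lay below 0 in 5 clusters and above 0 in 0. The widespread form *Cox6b1* had 500.1 and 460 CPM, a log2 ratio of -0.12 (-0.18 to -0.06), so *Cox6b2* held a substantial part of the subunit 6B RNA in both libraries. *Cox6b2* lies at chr7:4751792-4753094 on the minus strand (GENCODE M21, GRCm38). No exon of another gene on that strand overlapped its last 500 bases, and no other transcript held a near-identical copy of them.

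**Figure D2:**
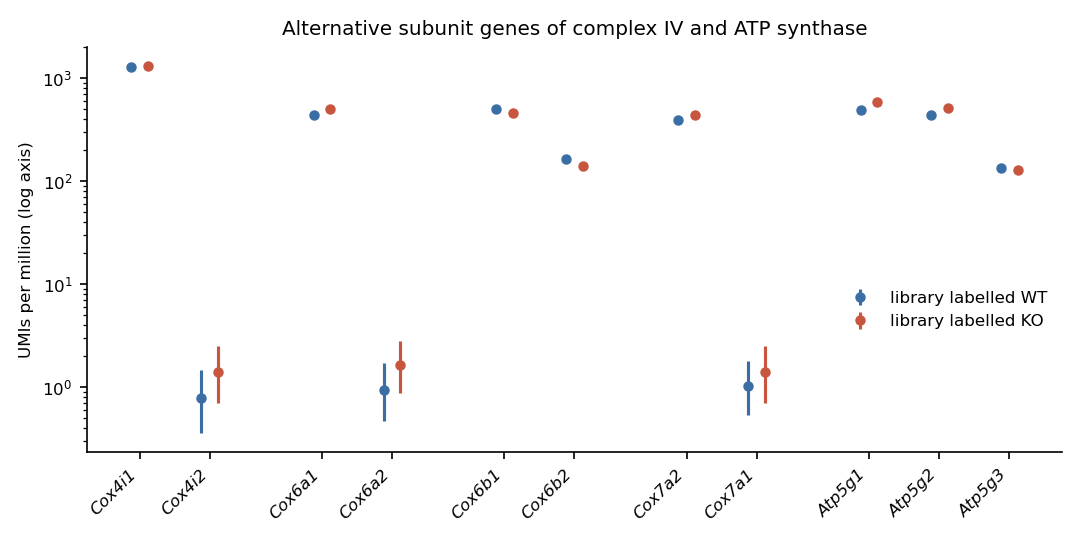
CPM (log axis) of alternative subunit genes in the WT-labelled library (blue) and the KO-labelled library (red), with 95% counting intervals, for 4 subunits of complex IV and for subunit c of ATP synthase. *Cox4i2*, *Cox6a2* and *Cox7a1* sit between 0.771 and 1.64 CPM, whereas *Cox6b2* is at 163 and 141.

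Complex V, the ATP synthase, summed to 6301 and 7061 CPM, a log2 ratio of 0.16 (0.15 to 0.18), the largest of the 4 complexes. Of its 15 genes 12 were higher in the KO-labelled library and 2 were 1.2-fold higher, where 60.2% and 23.7% of all robust genes were. In the F1 head, which makes ATP, *Atp5c1* (the central gamma shaft) stood apart: it had 5125 UMIs, 439 CPM, in the WT-labelled library and 4953, 625 CPM, in the KO-labelled library. Its log2 ratio of 0.51 (0.45 to 0.57) was the largest of the 72 robust members. The other head genes differed less. The catalytic beta subunit *Atp5b* had 661 and 681 CPM, a log2 ratio of 0.04 (-0.01 to 0.09) that was 0.12 in cells with 1000 or more genes and 0.23 in cells matched on total UMIs, and the alpha subunit *Atp5a1* had 372 and 386, a log2 ratio of 0.05 (-0.01 to 0.12). The gamma, beta and alpha subunits assemble into 1 head, and their RNA differed between libraries by unlike amounts.

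In the stalk and membrane part *Atp5o*, which joins the peripheral stalk to the head, had 388 and 503 CPM, a log2 ratio of 0.37 (0.31 to 0.44). *Atp5l*, the most abundant gene of the complex, had 739 and 831, a log2 ratio of 0.17 (0.12 to 0.22). *Atp5f1*, the stalk subunit b, had 555 and 657, a log2 ratio of 0.24 (0.19 to 0.30). *Atp5j2*, a membrane subunit, had the lowest ratio of the complex, with 300.2 and 257 CPM and a log2 ratio of -0.22 (-0.30 to -0.14). The peripheral and membrane genes thus held both the higher and the lower members.

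The c ring that turns with the proton flow is built from a single mature protein encoded by 3 genes. *Atp5g1* had 493 and 586 CPM, a log2 ratio of 0.25 (0.19 to 0.31). *Atp5g2* had 437 and 514, a log2 ratio of 0.23 (0.17 to 0.29). *Atp5g3* had 135 and 127, a log2 ratio of -0.08 (-0.20 to 0.03), and in matched cells it was 0.08. The order of the 3 genes was the same in both libraries, and the intervals of *Atp5g1* and *Atp5g2* lay above that of *Atp5g3*.

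Lists of neighbouring genes were read beside the members. The 13 subunits encoded by mitochondrial DNA summed to 3737 and 4658 CPM, a log2 ratio of 0.32 (0.30 to 0.34), and 5 of the 9 robust ones were 1.2-fold higher and 0 lower (23.7% and 15.5% of all robust genes). *mt-Atp6*, a subunit of complex V, had 910 and 1392 CPM, a log2 ratio of 0.61 (0.57 to 0.65). *mt-Nd4*, a proton-pumping subunit of complex I, had 256 and 364, a log2 ratio of 0.51 (0.43 to 0.58). *mt-Co1*, the catalytic subunit of complex IV, had 880 and 963, a log2 ratio of 0.13 (0.09 to 0.17). By complex, the mitochondrial log2 ratio was above the nuclear one in complexes I (0.35), III (0.32) and V (0.61), and in complex IV it was 0.10 (0.07 to 0.13), beside 0.13 for the nuclear genes. Complex II, succinate dehydrogenase, which has no mitochondrially encoded subunit, had a summed log2 ratio of 0.21 (0.16 to 0.26), with 1 of 4 genes, *Sdhb*, 1.2-fold higher at 248 and 316 CPM.

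Of the other lists, cytochrome c and c1 had a summed log2 ratio of 0.24 with 1 of 2 genes, *Cyc1*, 1.2-fold higher. The TCA cycle had 0.20 with 3 of 9 robust genes higher, and the ADP, phosphate and outer membrane carriers had 0.35 with 4 of 6 higher, beside the same 23.7% of all robust genes. The adenine nucleotide carrier *Slc25a5*, which exports the ATP that complex V makes, had 1794 and 2411 CPM. Assembly factors outside the naming rule had 0.04, below 0 with ratios centred on the median, with 1 of 6 robust genes higher, and in none of these 4 lists or complex II was a robust gene 1.2-fold lower. Among the 13 regulators only *Yy1* was robust, with 84.5 and 57.1 CPM and a log2 ratio of -0.57, whereas *Nrf1* had 29.5 and 33.0 and *Gabpa* 20.7 and 26.1. Cytosolic ribosomal protein genes moved the other way, taking 14.6% of UMIs in the WT-labelled library and 12.0% in the KO-labelled library (log2 ratio -0.28), so that the share of other genes is larger by arithmetic, and without ribosomal protein and mitochondrially encoded genes in the total the members' log2 ratio was 0.09.

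**Figure D3:**
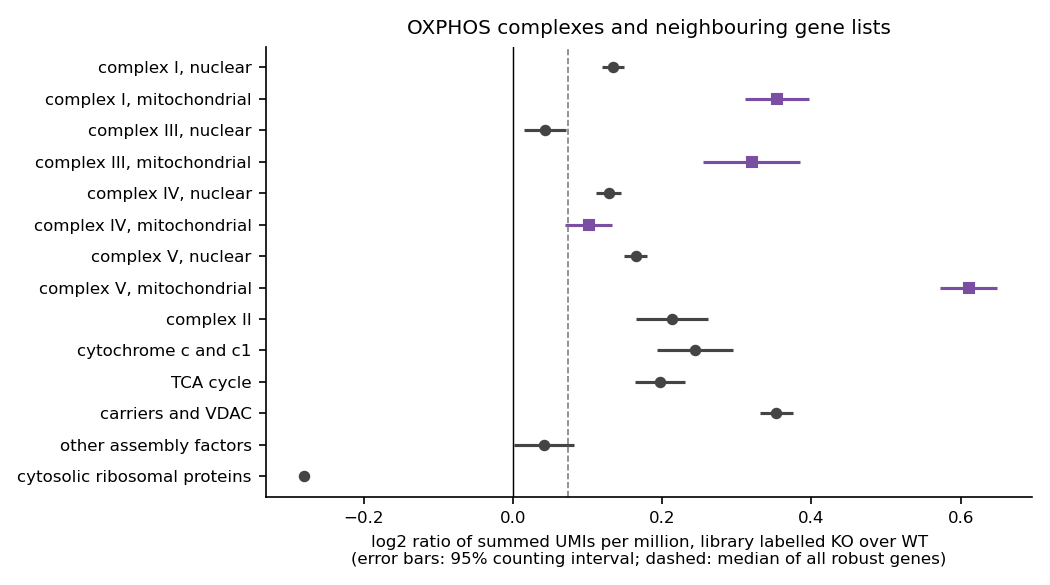
Log2 ratio of summed CPM (KO-labelled over WT-labelled library) with 95% counting intervals, for nuclear subunits (circles), mitochondrially encoded subunits (squares) and neighbouring lists. Only the ribosomal protein genes, at -0.28, lie below 0 on this scale, complex III and the other assembly factors (both 0.04) lie below the dashed line, and the mitochondrially encoded genes of complex V lie highest, at 0.61; the dashed line is the median of all robust genes, 0.07.

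To ask how the genes vary with cell state, the kept cells were grouped into 12 clusters from variable genes with all members left out. A cluster was named only where fixed markers led it. Cluster 3 was granulocyte-like, led by *Ly6g*, *Mmp9* and *Ltf*, cluster 5 was primary granule progenitor-like, led by *Elane*, *Mpo* and *Ctsg*, and cluster 7 was G2/M-like, led by *Ube2c*, *Cenpf* and *Ccnb1*. The others stayed unnamed and are called by number. Clusters were unevenly filled, with the granulocyte-like cluster holding 14.8% of kept cells in the WT-labelled library and 4.34% in the KO-labelled library. Cluster 2 held 3.21% and 17.9% (124 and 634 cells), and cluster 8 held 2.77% and 14.4% (107 and 509 cells).

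The members' share of UMIs was lowest in granulocyte-like cluster 3, at 1.56% (1.53 to 1.58) in the WT-labelled library and 1.53% (1.48 to 1.58) in the KO-labelled library. It was highest in cluster 9, led by *Mcpt8*, *Fabp5* and *Ccnd1*, at 2.74% (2.71 to 2.76) and 3.14% (3.11 to 3.17). Cluster 9 also had the highest median UMIs per cell, 5172.5 and 4469. From lowest to highest the share thus spanned 1.76-fold in the WT-labelled library and 2.06-fold in the KO-labelled library, more than the difference between libraries, and the clusters fell in much the same order in both (Spearman's rho 0.90 over 12 clusters, as a description). The primary granule progenitor-like cluster had 2.41% and 2.63%, well above the granulocyte-like one. The G2/M-like cluster 7 had 2.29% and 2.38%, in the middle of the order, and cluster 11, led by S phase genes such as *Ccne2* and *Rrm2*, had 2.51% and 2.59%.

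Within clusters the log2 ratio of the summed members ran from -0.03 to 0.20, with an interval above 0 in 10 of the 12 and below 0 in none. The clusters with intervals including 0 were the granulocyte-like cluster 3 (-0.03) and cluster 1 (-0.00), which was led by *Stfa1*, *Ngp* and *Chil1*. Clusters 9, 2 and 10 had the highest ratios, at 0.20, 0.19 and 0.19, that of cluster 2 resting on 124 WT-labelled cells. With the KO-labelled library reweighted to the cluster shares of the WT-labelled one, the overall log2 ratio was 0.10. Complex V was above 0 in all 12 clusters, from 0.01 to 0.26, whereas complex III was above 0 in 6.

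**Figure D4:**
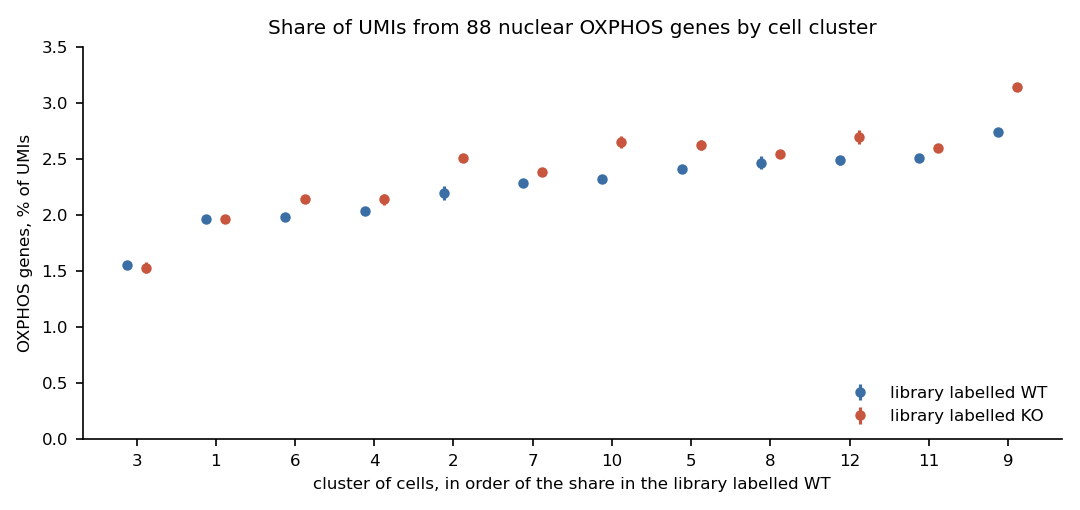
Percent of UMIs from the 88 genes in each of 12 cell clusters, ordered by the WT-labelled library (blue), with the KO-labelled library in red and 95% counting intervals. Granulocyte-like cluster 3 is lowest (1.56% and 1.53%) and cluster 9 highest (2.74% and 3.14%).

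Few single members kept their direction in every cluster. *Atp5c1* was above 0 in 12 of 12 clusters, from 0.15 to 0.94, with an interval above 0 in 10. *Ndufb8* ran from 0.12 to 0.79 (interval above 0 in 10), *Ndufv2* from 0.16 to 0.66 (in 9) and *Uqcrc1* from 0.01 to 0.47 (in 3). *Ndufs5* was below 0 in 12 of 12, from -0.55 to -0.05, with an interval below 0 in 4. These 5 were the only robust members on 1 side of 0 in all 12 clusters. The same was not counted over all robust genes, so it does not set the members apart.

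The complexes moved together across clusters. Pearson's r between the shares of any pair of complexes I, III, IV and V was 0.87 to 0.94 in the WT-labelled library and 0.90 to 0.96 in the KO-labelled library, over 12 clusters that share depth and library. The complexes also followed the cytosolic ribosomal protein genes, with r of 0.69 to 0.85 and 0.83 to 0.87. Across single cells thinned to 1000 UMIs the same pairs had r of 0.12 to 0.21 and 0.06 to 0.17, values limited by the few UMIs per cell. Of the 72 robust members 41 in the WT-labelled library and 50 in the KO-labelled library were lowest in granulocyte-like cluster 3, and 23 and 34 were highest in cluster 9. These counts were not made over all robust genes, so they do not set the members apart. The summed mitochondrially encoded genes (0.203% and 0.289% of UMIs) and cytosolic ribosomal protein genes (5.83% and 5.09%) were also lowest in cluster 3. Each gene's r with the sum of the other members over the clusters had a median of 0.69 and 0.75.

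Members differed in how far their levels spanned the clusters. *Atp5g2*, a subunit c gene that followed the common order (r 0.89 and 0.91), spanned 101 to 675 CPM over the clusters of the WT-labelled library and 94.8 to 785 in the KO-labelled library. *Cox6b2* spanned 26.9 (29 UMIs) in granulocyte-like cluster 3 to 227 in cluster 10 of the WT-labelled library, an 8.45-fold span and the widest there, and 43.4 to 208 in the KO-labelled library. *Atp5l* was the most even, from 621 to 838 CPM, a 1.35-fold span, and 1.39-fold in the KO-labelled library. Genes of 1 enzyme therefore differed widely in their range over clusters.

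*Ndufv3*, an accessory subunit of the NADH-oxidizing arm, ran against the other members, with r of -0.28 and -0.37: it was 296 and 280 CPM in granulocyte-like cluster 3, where most members were lowest, and 206 and 184 in cluster 9. *Cox7a2l*, known as a factor linked to supercomplexes of complexes III and IV, was 532 and 474 CPM in cluster 2, led by *Cd74*, *Sox4* and *Cd34*. It was 117 and 106 in cluster 6, led by the S phase genes *Ccne2* and *Rrm2*. Its r was -0.03 and 0.19. *Ndufa13*, an accessory subunit of complex I also known as a cell death regulator, was 473 and 429 CPM in cluster 2 and 194 and 221 in cluster 6, with r of -0.06 and 0.13. These 3 genes followed the same pattern in both libraries.

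**Figure D5:**
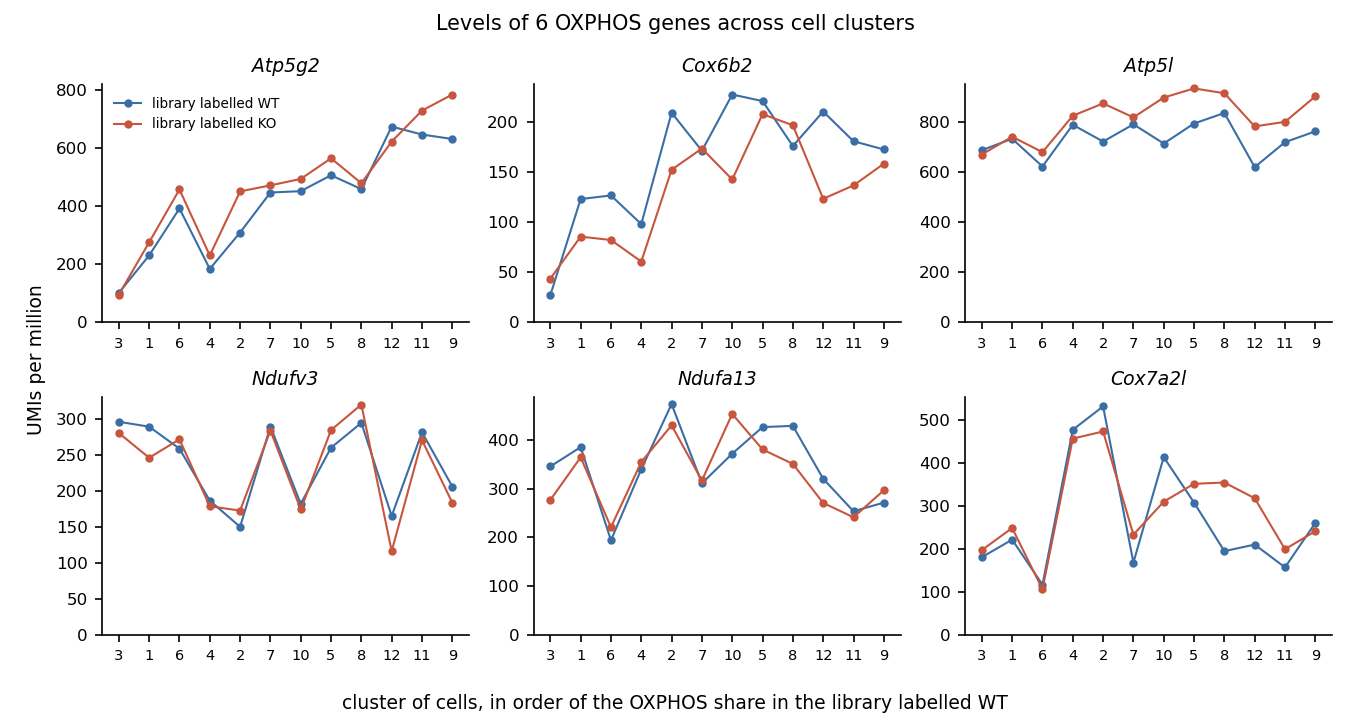
CPM of 6 members in each of 12 cell clusters, ordered by the members' summed share in the WT-labelled library (blue), with the KO-labelled library in red; lines only join points. *Atp5g2* climbs with the common order, *Atp5l* is nearly flat, *Ndufv3* runs against it, and *Cox7a2l* and *Ndufa13* are high in cluster 2 and low in cluster 6.

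Cell-to-cell variability was measured as the coefficient of variation (CV, SD over mean) after each cell was thinned to 1000 UMIs, which left out 66 cells of the WT-labelled library and 194 of the KO-labelled library. The median log2 ratio of CVs over the 72 robust members (KO-labelled over WT-labelled) was -0.01, with 35 above 0, and over all 2737 robust genes it was 0.02, with 54.7% above 0. Without thinning the members' median was 0.21 with 68 above 0, beside 0.21 and 87.7% for all robust genes. The difference in CV at own depth was thus not present at equal depth. In the thinned cells the variance over the mean had a higher median in the KO-labelled library, though it was lower there for some members. This median was 1.1975 and 1.3293 over the members, and 1.16444 and 1.27038 over all robust genes. The ratio of CVs alone therefore does not show equal variability. *Ndufs5* had the highest ratio, a CV of 2.44 and 2.94 and a log2 ratio of 0.27, at a mean of 0.179 and 0.139 UMIs per cell. *Atp5g3* had the lowest ratio, a CV of 3.95 and 3.08, a log2 ratio of -0.36, and without the 5 cells of each library with the most *Atp5g3* UMIs this was -0.04. *Atp5j*, the coupling factor 6 of the stalk, went from 0.23 to -0.00 in the same way. A few cells with many UMIs of the gene therefore carried both of these differences.

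Summed over the members, a cell thinned to 1000 UMIs held 21.6 ± 6.92 member UMIs in the WT-labelled library (SD over 3800 cells) and 23.9 ± 7.31 in the KO-labelled library (3351 cells). The middle 90% of cells ran from 11 to 34 and from 13 to 37, so the cells of the libraries overlapped almost throughout. The variance was 2.27 and 2.29 times that of counting alone, and within single clusters it ran from 1.45 to 2.28 times in the WT-labelled library and from 1.43 to 2.54 times in the KO-labelled library. Cells are not replicates of a genotype, and these values describe the 2 libraries.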

How the data were processed

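The authors deposited a 10x Genomics matrix of UMI counts per gene and cell, with both libraries in 1 table. Per the labels' processing notes it was made with Cell Ranger 1.3.1 on mm10, and the study's methods name a later version. Counts were used as deposited. Cells with at least 500 genes were kept (7411 of 8309), and levels are CPM of a library's kept UMIs. Because the assay counts 3′ ends, levels were not divided by length. Robust genes had a UMI in 10% of kept cells. With 1 library per genotype no test was run: ratios carry exact conditional binomial 95% intervals, shares Clopper-Pearson intervals, levels exact Poisson intervals, all for counting error only, and a gene was called at 1.2-fold. Kept UMIs were 11669427 in the WT-labelled library and 7920256 in the KO-labelled library. Cells were clustered by k-means (12 clusters, 20 principal components of 782 variable genes, found per library among genes that are no member, up to 500 each; scikit-learn 1.9.0). Doublets were not removed. The sort gated singlets before library preparation, which does not exclude cells captured together afterwards. A run without the top 5% by Scrublet score (scanpy 1.11.5) was an alternative. Near-identical copies were searched with blastn 2.17.0 in GENCODE M21 transcripts and concerned 13 robust members. The ratio and thinning steps were tested on simulated data. 56 symbols occur more than once in the matrix, none of them a member.

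The members, lists, roles and named genes were chosen with earlier results of these data known. Genes were named by rule: in each complex, the 3 most abundant and the 2 highest and 2 lowest ratios among robust members, genes with tissue-restricted paralogs, the subunit c genes, *Kat2a*, and the mitochondrially encoded, complex II and regulator lists. Other complex I core and F1 subunits, *Cox5a*, *Cyc1*, *Slc25a5* and genes named for their course over clusters or their CV were chosen after their values were seen. Alternatives covered cell filters, matching, scaling, cluster mix, detection filter, fold and cluster number. The values of 1 complex I member are not reported here; it is included in the sums and counts.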

Additional observations from a re-analysis of the deposited data

Results flagged for a closer look

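The cells under 500 genes, used in no comparison of the report, also held UMIs of the members. The members took, in 203 WT-labelled cells of this kind, 1.52% of UMIs (1.47 to 1.57), and in 695 KO-labelled cells 1.78% (1.75 to 1.81). Both shares lay below those of the kept cells, and the order of the libraries was the same.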

How the results depend on the processing

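No paired analysis was possible because each genotype was 1 library. The summed log2 ratio of the members was above 0 under every alternative, from 0.06 to 0.20, leaving out the highest Scrublet scores moved none of the sums, counts, CV median or named members beyond its tolerance, and for shared barcodes the summed ratio alone was run (0.13). Log2 ratios are given in the order all members, complex I, its assembly factors, complexes III, IV and V. In cells with 1000 or more genes they were 0.17, 0.17, 0.25, 0.10, 0.14 and 0.21, with 23 of 74 robust members 1.2-fold higher (25.9% of robust genes). In cells matched on total UMIs they were 0.20, 0.19, 0.16, 0.11, 0.19 and 0.26, with 25 higher and 0 lower (33.6% and 17.6% of robust genes). Thinned to 1000 UMIs they were 0.15, 0.16, -0.064, 0.079, 0.14 and 0.19. With every deposited cell they were 0.11, 0.11, 0.04, 0.02, 0.11 and 0.13, with 2 lower (15.4% of robust genes). Centred on the median of robust genes they were 0.058, 0.060, 0.01, -0.031, 0.054 and 0.090, with 7 higher and 3 lower (16.3% and 20.9% of robust genes). Complex III was then reversed. Without ribosomal protein and mitochondrially encoded genes in the total they were 0.091, 0.093, 0.04, 0.0018, 0.087 and 0.12, with 2 lower (18.4% of robust genes). With clusters reweighted they were 0.10, 0.10, 0.08, 0.04, 0.083 and 0.13, with 3 lower (13.3% of robust genes). At 1.5-fold 0 members were higher and 0 lower (3.54% and 3.43% of robust genes). Without the 13 members with a near-identical copy, 13 of 59 were 1.2-fold higher and 0 lower (23.7% and 15.5% of robust genes). That setting was chosen after seeing the data, as were the shared barcodes and the CV without the 5 highest cells. The median log2 CV ratio was -0.064 in matched cells and between -0.02 and 0.03 otherwise. The lowest and highest cluster shares were 1.59% and 2.65% (WT-labelled library) and 1.59% and 3.06% (KO-labelled library) with 8 clusters, and with 16 the lowest in the WT-labelled library was 1.53%. Of 160 values of 32 named members under the 5 alternative cell sets, 120 stayed inside the interval first given, and 12 changed sign, none of a member past 1.2-fold: those of *Atp5g3*, *Cox6b2*, *Cox7a2l*, *Cox7b*, *Ndufaf3*, *Ndufb7*, *Ndufb11*, *Uqcr10*, *Uqcr11* and *Uqcrh*. The causes were not tested beyond what each setting changes. Intervals cover counting error, so differences between pooled leukemias cannot be told apart from differences of genotype.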
